A study of Canis lupus familiaris with 45 samples.

Results

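The transcription factors that turn precursor cells into fat cells were followed in subcutaneous fat of 9 intact female beagles, aged 4 years. The genes PPARG, CEBPA, CEBPB, CEBPD, KLF5, KLF15, EBF1, GATA2, ZNF423 and RXRA were taken by their symbols in the array's platform table. Of these 10 genes, 7 had a probe set with their symbol, 11 probe sets in all, among 15115 genes with a symbol of their own and 42924 probe sets. CEBPA, CEBPB and CEBPD had 0 probe sets under their symbols and were not analysed here.

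Dogs 1, 3, 4 and 9 were controls (n = 4), given enough food to hold their starting body weight, and dogs 2, 5, 6, 7 and 8 ate ad libitum (n = 5). All 9 dogs ate Purina Pro Plan Performance Formula, carried no stated allele or drug, and were sampled after fasting overnight at weeks 0, 4, 8, 12 and 24, which gave 45 arrays, 1 per dog and week. Each value is a log2 GCRMA value of 1 probe set in whole fat, so a difference of 1 is a doubling or halving, and levels are compared only within a probe set. A lower value in whole tissue may reflect fewer cells of a type or less RNA per cell, which cannot be told apart. Batches 1 to 5 of the labels mixed weeks 0 to 12, and batch 6 was all 9 arrays of week 24, so within a feeding group week 24 and its batch cannot be told apart.

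Fat cells arise from mesenchymal precursors. ZNF423 and EBF1 mark and commit the precursors, C/EBPβ, C/EBPδ and KLF5 act early after the stimulus to differentiate, and they switch on PPARG and C/EBPα. PPARG is the nuclear receptor without which fat cells do not form. It binds DNA as a pair with RXRA, keeps the mature fat cell's genes active and is the target of the thiazolidinedione drugs. KLF15 acts later in the course and promotes GLUT4 expression, and GATA2 is a brake that holds cells in the precursor state.

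Several arrays stood apart from the rest. Transcripts of skeletal muscle were high on 10 arrays, 5 of control and 5 of ad libitum dogs, where the mean of 21 muscle genes was at least 7.85, against at most 5.41 on the other 35. At week 24 these were the arrays of control dogs 3 and 4, with muscle means of 10.35 and 9.68, and 0 ad libitum arrays. The array of control dog 4 at week 24 was also the only 1 of 45 with the epithelial keratins above background (KRT8 9.53, KRT18 11.33). Of 45 arrays, 43 matched their labelled dog best over 100 probe sets that separate the dogs, and the week-8 arrays labelled control dog 9 and ad libitum dog 5 each matched the other's label best (r = 0.80 and 0.91 with that other dog). Fat was well represented throughout: ADIPOQ, the adiponectin gene, averaged 15.52 and FABP4, the fatty acid carrier of fat cells, 15.80, and all 7 adipocyte markers were above 4 on all 45 arrays.

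PPARG, KLF5, all 3 probe sets of EBF1 and 2 of the 3 of ZNF423 were above the detection limit, a log2 value of 4 on at least 4 arrays, so 7 of the 11 probe sets were tested. RXRA, a partner of PPARG, was read at 2.04 to 2.12 and GATA2 at 2.39 to 3.02, above the limit on 0 of 45 arrays. KLF15 was read at 2.80 to 4.46 and passed the limit on 1 array, that of ad libitum dog 2 at week 8. The dimmest ZNF423 probe set was read at 2.52 to 4.31 and passed it on 2 arrays. These 4 probe sets gave values at background, which say nothing of the level of their genes in fat, and they entered no test. The 7 tested probe sets were above 4 on all 45 arrays.

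**Figure D1:**
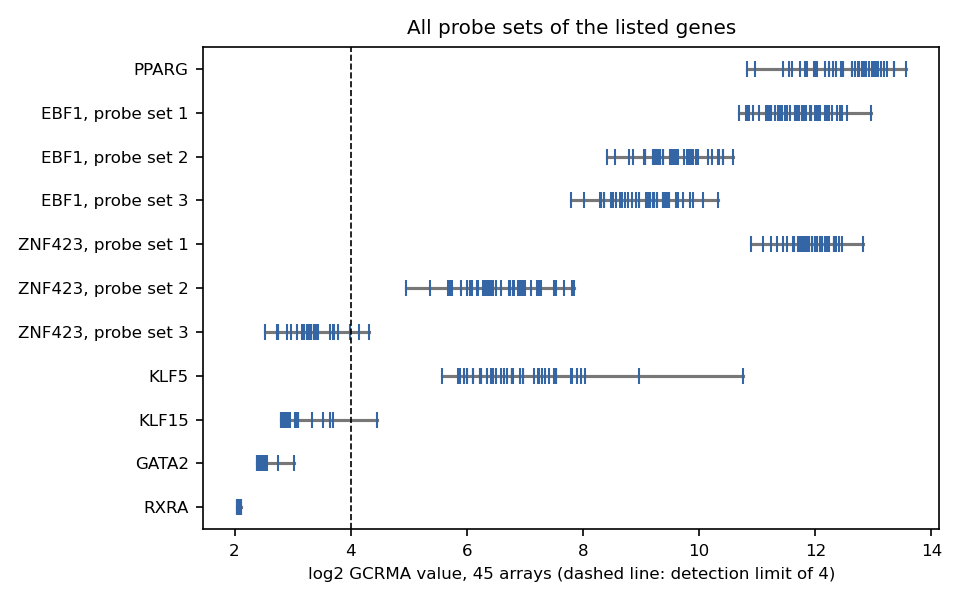
Log2 GCRMA value (horizontal axis) of each of the 11 probe sets (rows), with 1 tick per array for 45 arrays, a line over the range and a dashed line at the detection limit of 4. The 7 tested probe sets lie wholly to the right of the limit, whereas GATA2 and RXRA lie wholly to the left and KLF15 crosses it on 1 array.

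PPARG, read by 1 probe set, was at 12.52 ± 0.63 (SD, n = 45 arrays), between 10.82 and 13.56. By group and week its mean ran from 12.90 ± 0.34 (SD, n = 5) in ad libitum dogs at week 4 down to 11.73 ± 0.74 (SD, n = 4) in controls at week 24. None of the 9 gaps between neighbours in that order exceeded the pooled SD within groups, 0.60, and the widest was 0.35. Before the feeding change the 5 ad libitum dogs lay close together, from 12.73 to 12.87, and the 4 controls spread around them, from 11.73 to 13.19.

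At week 24 the PPARG values of control dogs 1, 3, 4 and 9 were 12.17, 10.82, 11.45 and 12.47. Those of ad libitum dogs 2, 5, 6, 7 and 8 were 12.86, 10.97, 12.99, 12.97 and 12.76. Ad libitum dogs 2, 6, 7 and 8 lay above all controls, whereas dog 5 lay below all controls but dog 3, so the groups overlapped. The difference, ad libitum minus control, was 0.79 (SE 0.40, 95% interval -0.03 to 1.60) with a limma adjusted p of 0.24, and did not pass. Without ad libitum dog 5 it was 1.17 and passed (adjusted p = 0.0376). Without control dog 3 it was 0.48 (adjusted p = 0.56), without the week-24 arrays of control dogs 3 and 4 it was 0.20 (adjusted p = 0.93), and without all 10 muscle-rich arrays 0.28 (adjusted p = 0.85). At weeks 0, 4, 8 and 12 the difference was 0.49, 0.03, -0.17 and 0.56, with adjusted p from 0.56 to 1.00. The feeding effect at week 24, which is the week-24 difference minus the week-0 difference, was 0.30 (SE 0.57, adjusted p = 0.89).

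PPARG moved in part with the adipocyte markers. Control dog 3 and ad libitum dog 5 at week 24 had the lowest adipocyte means of all arrays, 11.71 and 11.81, and the lowest PPARG values, 10.82 and 10.97. By group, controls at week 24 had the lowest mean of both, 11.73 for PPARG and 12.42 for the adipocyte markers. Controls at week 12 had the next lowest PPARG mean, 12.08, but an adipocyte mean of 13.20. Over the 45 arrays, which share dogs, PPARG correlated with the adipocyte mean at r = 0.68, and at 0.58 over the 35 arrays without muscle transcripts. On those 35 it correlated with the mean of 10 macrophage markers at r = -0.62. The part of cell makeup in the PPARG differences was not tested.

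EBF1, the early B-cell factor that also drives precursors towards fat cells, was read by 3 probe sets. The brightest was at 11.68 ± 0.52 (SD, n = 45 arrays), and it correlated with the other probe sets at r = 0.70 and 0.85 over the arrays. It was highest in controls at week 24, 12.45 ± 0.36 (SD, n = 4), and lowest in ad libitum dogs at week 8, 11.06 ± 0.39 (SD, n = 5). Both ends of that order stood off from their neighbour by more than the pooled SD of 0.44, by 0.49 at the top and 0.51 at the bottom, while the 8 groups between them lay closer together.

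At week 24 EBF1 read 12.21, 12.46, 12.17 and 12.96 in control dogs 1, 3, 4 and 9. It read 11.03, 11.93, 11.91, 11.84 and 11.99 in ad libitum dogs 2, 5, 6, 7 and 8. All 5 ad libitum dogs lay below all 4 controls, with dog 2 lowest. The difference was -0.71 (SE 0.30, 95% interval -1.32 to -0.11, unadjusted p = 0.0221) and missed the threshold with a limma adjusted p of 0.14. The other EBF1 probe sets differed by -0.08 (adjusted p = 0.92, the middle one, with a mean level of 9.58) and -0.31 (adjusted p = 0.62, the dimmest, with a mean level of 9.09), and in both the groups overlapped. Whether the probe sets differed from each other was not tested.

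At week 8 EBF1 read 10.80, 10.93, 10.69, 11.65 and 11.21 in ad libitum dogs 2, 5, 6, 7 and 8, and 11.68, 12.24, 10.86 and 11.51 in control dogs 1, 3, 4 and 9. The muscle-rich arrays of that week were those of ad libitum dog 7, the highest of its group, and control dog 4, the lowest of its group. The difference was -0.56 (SE 0.30, adjusted p = 0.23). The ad libitum dogs had changed from week 0 by -0.88 (SE 0.30, unadjusted p = 0.00555, adjusted p = 0.0644), lower in 3 of 5 dogs, in a comparison where 6.73% of all tested probe sets passed. Without the 10 muscle-rich arrays the difference at week 8 was -1.06 (SE 0.27, adjusted p = 0.0254) and the change from week 0 was -1.85 (adjusted p = 0.00823). That change rested on only 2 ad libitum arrays at week 0, those of dogs 2 and 6 (12.55 and 12.37). Both were of batch 2, which held no week-8 array. The week-0 arrays left out were those of ad libitum dogs 5, 7 and 8 (12.42, 11.30 and 11.15). Without ad libitum dog 8, all 3 EBF1 probe sets passed in the change from week 0 (the brightest at -1.35). Without dog 7 the brightest did (-1.29, adjusted p = 0.0337). Dogs 7 and 8 were those in which the brightest probe set was higher at week 8 than at week 0. It read 11.65 after 11.30 in dog 7 and 11.21 after 11.15 in dog 8, so leaving either out enlarges the fall. Without the arrays labelled ad libitum dog 5 and control dog 9, which matched each other's label, the difference was -0.39 (adjusted p = 0.65) and the change -0.78 (adjusted p = 0.16).

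ZNF423, the zinc-finger protein of committed precursors, had its brightest probe set at 11.94 ± 0.37 (SD, n = 45 arrays). Its group means ran from 12.28 ± 0.13 (SD, n = 4) in controls at week 24 to 11.56 ± 0.48 (SD, n = 4) in controls at week 8. All 9 gaps between neighbours in the order were below the pooled SD of 0.35. The spread among dogs was smallest in ad libitum dogs at week 12 (SD 0.08) and in both groups at week 24.

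At week 24 ZNF423 read 12.09, 12.35, 12.34 and 12.33 in control dogs 1, 3, 4 and 9, and 11.62, 11.95, 11.72, 11.77 and 11.80 in ad libitum dogs 2, 5, 6, 7 and 8. Every ad libitum dog lay below every control. The difference was -0.50 (SE 0.23, 95% interval -0.98 to -0.03, unadjusted p = 0.0386), and the limma adjusted p of 0.19 missed the threshold. A second, dimmer probe set, with a mean level of 6.52, gave -0.55 (SE 0.34, adjusted p = 0.34), lower in 4 of 5 dogs, with overlapping groups.

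That second ZNF423 probe set ran the other way at week 8. It read 6.18, 7.53, 7.68, 7.21 and 6.93 in ad libitum dogs 2, 5, 6, 7 and 8, against 6.50, 6.20, 4.96 and 6.42 in control dogs 1, 3, 4 and 9. The lowest value was on the muscle-rich array of control dog 4, and the groups overlapped through ad libitum dog 2. The difference was 1.11 (SE 0.34, 95% interval 0.42 to 1.80) with an adjusted p of 0.0633, where 1.42% of all tested probe sets passed, and the brighter probe set gave 0.44 (adjusted p = 0.23). Without control dog 1 the dimmer probe set passed, at 1.29 (adjusted p = 0.0386), whereas without the 10 muscle-rich arrays it was 0.69 (adjusted p = 0.29). Without the week-8 arrays labelled ad libitum dog 5 and control dog 9, whose labels are in doubt, it was 0.94 (adjusted p = 0.27).

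KLF5, a Krüppel-like factor that C/EBPβ and C/EBPδ induce early in differentiation and that is also abundant in epithelia and smooth muscle, gave the only difference between feeding groups that passed the test. Its only probe set was at 6.89 ± 0.94 (SD, n = 45 arrays), between 5.58 and 10.75. At week 24 it read 7.35, 8.96, 10.75 and 7.23 in control dogs 1, 3, 4 and 9. In ad libitum dogs 2, 5, 6, 7 and 8 it read 6.41, 6.77, 6.96, 6.23 and 6.11. The groups did not overlap, and control dogs 3 and 4 stood well above the other controls.

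KLF5 was thus lower in ad libitum dogs at week 24 by log2 2.08, or 4.23-fold (difference -2.08, SE 0.51, 95% interval -3.12 to -1.04, limma adjusted p = 0.0155, lower in 5 of 5 dogs). This was 1 of the 7 tested probe sets, in a comparison where 5.46% of all tested probe sets passed and 1.69% passed as lower. Without adjustment 3 of the 7 passed, KLF5, EBF1 and ZNF423, where 22.7% of all did. At week 24 the KLF5, EBF1 and ZNF423 leading probe sets were also the 3 of 7 without overlap between groups, against 9.75% of all tested probe sets, and all 3 were lower (4.34% of all).

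The KLF5 difference rested on the arrays of control dogs 3 and 4. Without the array of control dog 4 at week 24 it was -1.36 (adjusted p = 0.12). Without those of control dogs 3 and 4 it was -0.80 (adjusted p = 0.57), and without all 10 muscle-rich arrays -0.85 (adjusted p = 0.44). When 1 dog was left out at all weeks, the difference was -1.35 (adjusted p = 0.13) without control dog 4. It stayed near its full size but missed the threshold without ad libitum dog 2 (-2.06, adjusted p = 0.0707), ad libitum dog 7 (-2.01, adjusted p = 0.0552) or control dog 3 (-1.95, adjusted p = 0.0561). The control dogs without muscle transcripts, 1 and 9, read 7.35 and 7.23, above all 5 ad libitum dogs, of which the highest read 6.96. With the muscle mean as a covariate the difference was -1.78 (adjusted p = 0.0288) and passed.

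Some markers of other cells moved with KLF5. Over the 45 arrays, which share dogs, it correlated with the skeletal muscle mean at r = 0.44, the epithelial mean at 0.58 and the smooth muscle mean at 0.48. Over the 35 arrays without muscle transcripts these were -0.16, 0.09 and 0.50. With the endothelial, mast cell and fibroblast means KLF5 correlated at 0.07, 0.31 and 0.39 over the 45 arrays. Over the 35 these were 0.46, 0.45 and 0.36. The macrophage, T cell and neutrophil means gave 0.06, -0.06 and 0.01 over the 45, and 0.31, 0.28 and 0.21 over the 35. With the adipocyte mean KLF5 correlated at -0.60 over the 45 arrays and -0.39 over the 35. Over all weeks KLF5 averaged 7.65 ± 1.41 (SD) on the 10 muscle-rich arrays and 6.67 ± 0.63 (SD) on the other 35. The 8 muscle-rich arrays of earlier weeks read KLF5 at 5.85 to 8.04, with muscle means from 7.85 to 14.50. At week 24 the muscle mean was 3.63 to 10.35 in controls and 3.76 to 5.41 in ad libitum dogs. The mean of 5 epithelial markers was 2.72 to 7.91 in controls and 2.65 to 2.80 in ad libitum dogs, and the keratins KRT8 and KRT18 were at background on every other array. EPCAM, another epithelial marker, was 13.86 on the array of control dog 4 and at most 9.00 elsewhere, and was above 4 on 19 of 45 arrays. CDH1, an epithelial cadherin of the same list, was at background on every array, from 1.76 to 1.84. The mean of 4 smooth muscle markers was 10.99 to 13.10 in controls, highest in dog 4, and 9.04 to 11.31 in ad libitum dogs.

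Group means of a measure of RNA quality differed as well. The log2 signal of the 3' end of actin minus that of its 5' end, which grows as RNA degrades, was 4.79 ± 1.20 (SD, n = 4) in controls and 3.51 ± 0.91 (SD, n = 5) in ad libitum dogs at week 24. The groups overlapped there, at 3.18 to 5.86 and 2.37 to 4.47, but only through control dog 3 at 3.18. Control dogs 1, 4 and 9, at 4.60, 5.86 and 5.53, lay above all ad libitum dogs. At week 4 this actin measure was 3.00 ± 0.27 (SD, n = 4) in controls and 1.75 ± 0.24 (SD, n = 5) in ad libitum dogs. At weeks 0 and 8 its means were 2.89 and 2.39 in controls and 2.85 and 1.74 in ad libitum dogs. At week 12 the actin measure ran the other way, with means of 1.94 in controls and 2.50 in ad libitum dogs. Its differences between groups were not tested. Over the 45 arrays the actin measure correlated with KLF5 at r = 0.57, with EBF1 at 0.52, with PPARG at -0.37 and with ZNF423 at -0.06. With it as a covariate the KLF5 difference was -1.66 (adjusted p = 0.27), and that of the brightest EBF1 probe set was -0.41 in place of -0.71 (adjusted p = 0.70). The part of these markers and of RNA quality in the KLF5 and EBF1 differences was not tested.

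**Figure D2:**
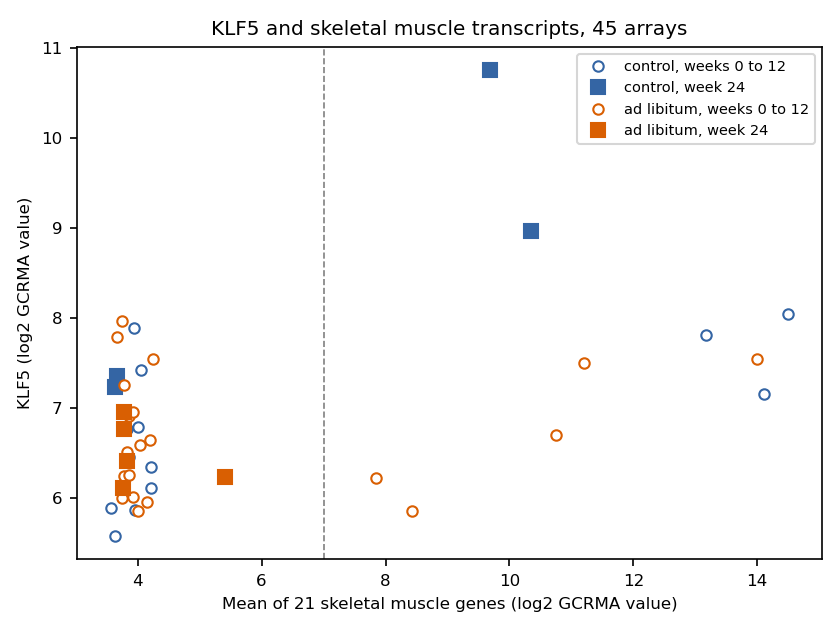
KLF5 (log2 GCRMA value, vertical axis) against the mean of 21 skeletal muscle genes (log2 GCRMA value, horizontal axis), 1 point per array for 45 arrays, squares for week 24. The dashed line at 7 separates the 10 muscle-rich arrays. The 2 control squares to its right, at 8.96 and 10.75, are the highest KLF5 values of all.

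At the other weeks KLF5 did not separate the groups. The difference was -0.40 at week 0, 0.15 at week 4, -0.28 at week 8 and 0.36 at week 12, with limma adjusted p from 0.75 to 1.00. Within batches over weeks 4 to 24 it was -0.97, 0.11, 0.04, 0.68 and 0.83 in batches 1 to 5 and -2.08 in batch 6. The highest group mean, 8.57 ± 1.65 (SD, n = 4) in controls at week 24, was the 1 of 9 neighbour gaps above the pooled SD of 0.76, lying 1.10 above controls at week 0.

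Compared with its week-0 value, KLF5 in controls at week 24 had changed by 1.10 (SE 0.54, adjusted p = 0.20), higher in 2 of 4 dogs, dogs 3 and 4. In ad libitum dogs it had changed by -0.58 (SE 0.49, adjusted p = 0.50), lower in 4 of 5. The feeding effect at week 24 was -1.68 (SE 0.73, 95% interval -3.17 to -0.19, unadjusted p = 0.0284, adjusted p = 0.43). The week-24 difference minus the mean of those at weeks 4, 8 and 12, called the late shift here, was -2.16 (SE 0.60, adjusted p = 0.0910), and did not pass. Without ad libitum dog 5 it was -2.37 (adjusted p = 0.0367).

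**Figure D3:**
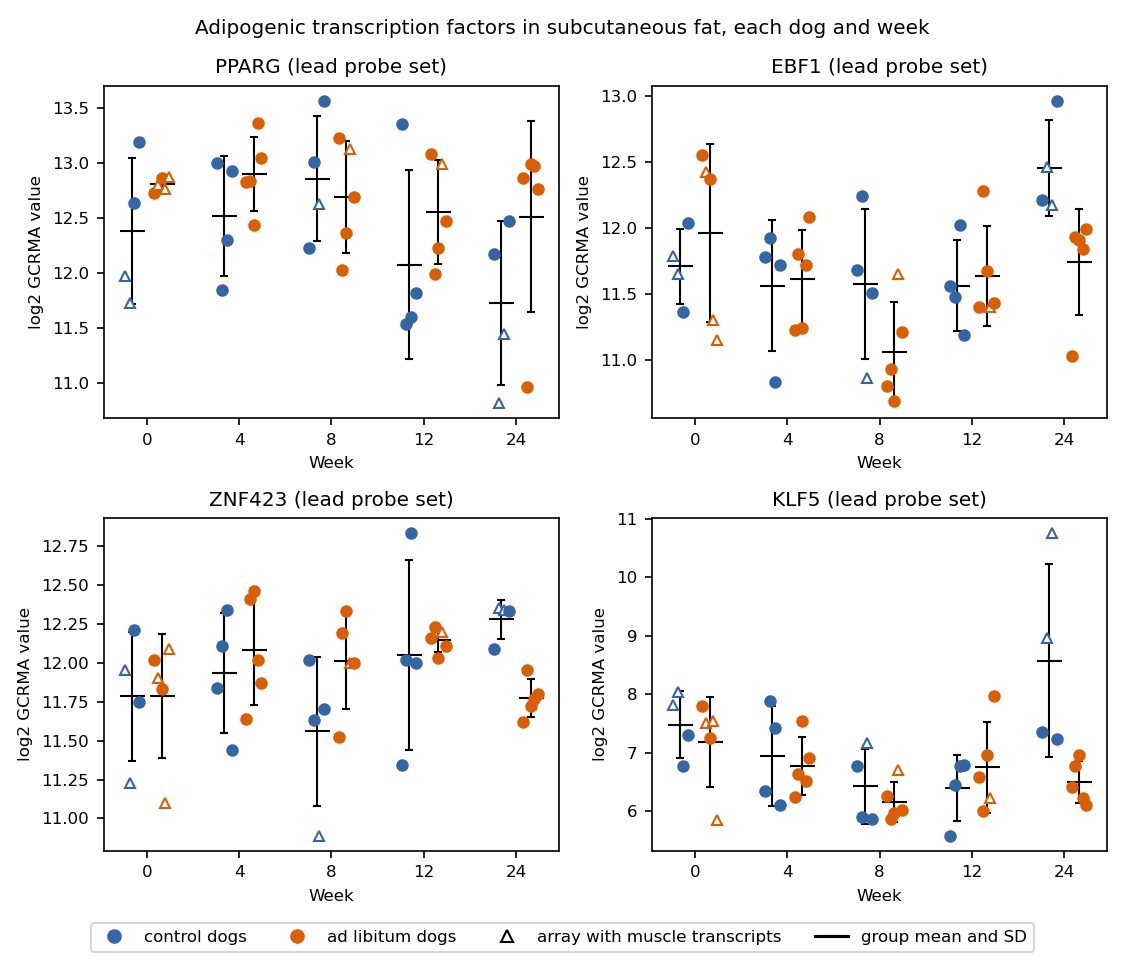
Log2 GCRMA value (vertical axis) of the leading probe set of PPARG, EBF1, ZNF423 and KLF5 by week (horizontal axis), 1 point per dog, with the mean and SD of the 4 control and 5 ad libitum dogs. Triangles mark muscle-rich arrays. KLF5 of control dogs 3 and 4 at week 24 stands at 8.96 and 10.75, above all other values, and PPARG of ad libitum dog 5 at week 24 lies at 10.97, far below its group.

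Among the 7 tested probe sets, 0 passed in the differences at weeks 0, 4, 8 and 12, where 0%, 0.0132%, 1.42% and 0.00441% of all tested probe sets did. For the feeding effect at week 24 the count was 0 of 7, where 0.022% of all did. At an unadjusted p under 0.05 it was 1 of 7, KLF5, where 10.2% of all did. For the feeding effect averaged over weeks 4, 8, 12 and 24 it was 0 of 7 with adjustment and without it, where 0% and 4.23% of all did. For the late shift it was 0 of 7 (0.383% of all), and 3 of 7 without adjustment (16.7% of all). When the 4 weekly feeding effects were tested together it was 0 of 7 (0.0132% of all), and 2 of 7 without adjustment (23.3% of all). Limma gave all these counts.

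The averaged feeding effect was -0.19 (95% interval -1.13 to 0.76) for PPARG, -0.06 (-1.27 to 1.15) for KLF5, -0.38 (-1.08 to 0.32) for EBF1 and -0.05 (-0.60 to 0.50) for ZNF423. These are values of the leading probe sets, and those of PPARG, KLF5 and EBF1 reach past a log2 difference of 1. That of the dimmer tested ZNF423 probe set, -0.25 (95% interval -1.05 to 0.55), does so too. A p above the threshold therefore does not show that the factors were unaffected.

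Changes from week 0 within a group gave 0 of 7 calls at every week in both groups. Of all tested probe sets, 0.498% and 0.802% passed in ad libitum dogs at weeks 4 and 12, and 0.00441%, 0% and 0% in controls at weeks 4, 8 and 12. In ad libitum dogs at week 24, where 4.78% of all tested probe sets passed, all 7 probe sets, of 4 genes, had negative changes. They ran from -0.03 in the dimmest EBF1 probe set to -0.78 in the dimmer ZNF423 probe set (adjusted p = 0.15). That of PPARG, -0.38, was negative in only 2 of 5 dogs, with -1.83 in dog 5. The shares of negative and positive changes over all tested probe sets were not counted. In controls at week 24, where 7.92% passed, 6 of 7 had positive changes, and PPARG alone a negative one, -0.68 (SE 0.42, adjusted p = 0.33). EBF1 in controls was higher than at week 0 in 4 of 4 dogs, by 0.69 (SE 0.31, adjusted p = 0.17).

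**Figure D4:**
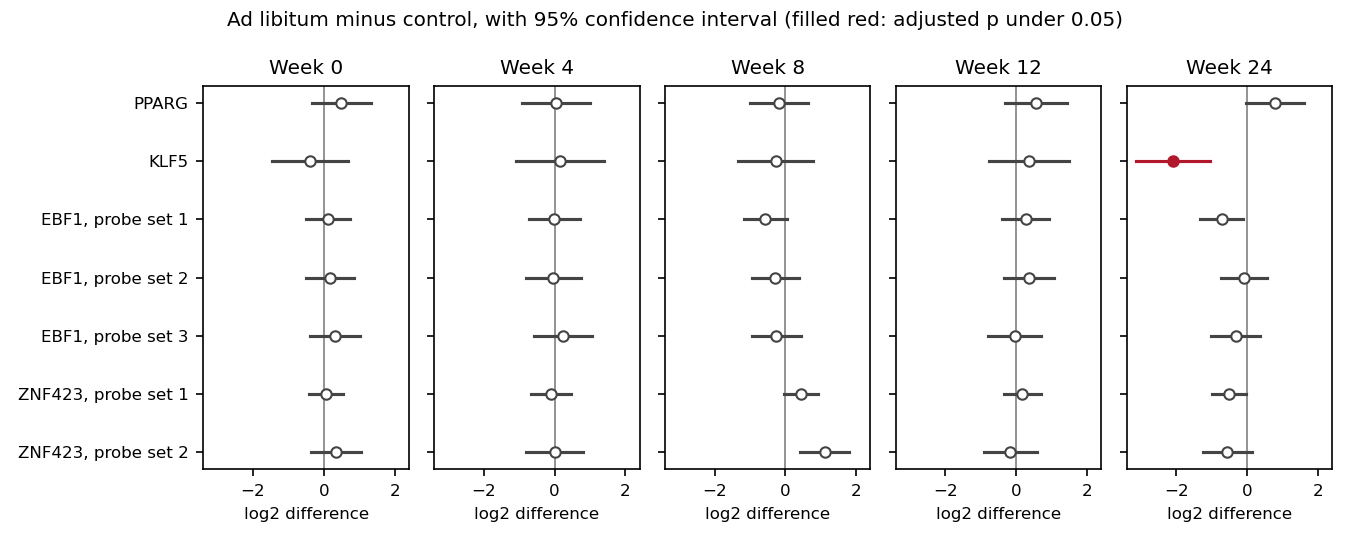
Log2 difference, ad libitum minus control (horizontal axis), with its 95% confidence interval, for the 7 tested probe sets (rows) at weeks 0, 4, 8, 12 and 24 (panels). The red filled point, KLF5 at week 24 (-2.08), is the only 1 past an adjusted p of 0.05; intervals of EBF1 and ZNF423 at week 24 and of ZNF423 probe set 2 at week 8 exclude 0 before adjustment.

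Some of the genes that PPARG and the C/EBP factors switch on in fat cells were higher at week 24. Of 26 listed targets 24 were tested, and at week 24, where 3.76% of all tested probe sets passed as higher, 7 were higher in ad libitum dogs and 0 lower. LEP, the satiety hormone leptin, differed by 2.70 (adjusted p = 0.0233) and PCK1, which makes the glycerol backbone of stored fat, by 2.39 (adjusted p = 0.0117). DGAT2, which adds the last fatty acid to triglyceride, differed by 2.37 (adjusted p = 1.30e-04). AQP7, the glycerol channel, differed by 2.10, the lipase LIPE by 1.77, AGPAT2 of triglyceride synthesis by 1.71 and the acyl-CoA synthetase ACSL1 by 1.64, with adjusted p from 0.0102 to 0.0356.

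In all, 22 of the 24 targets had positive differences at week 24, with a median of 0.67 against 0.01 over all tested probe sets. At week 0, before the feeding change, 21 of 24 were already positive, with a median of 0.15. At weeks 4, 8 and 12 the count was 8, 19 and 8. For the feeding effect at week 24 it was 22, with a median of 0.48, and 0 targets passed. In the week-24 difference FABP4 (0.15) and ADIPOQ (0.35) did not pass, nor did PLIN1 of the lipid droplet coat (0.69) or the fatty acid transporter CD36 (1.13). RETN, the resistin gene, had the lowest difference, -1.14 (adjusted p = 0.24), and CFD, the complement factor adipsin, was at -0.52 (adjusted p = 0.18). The adipocyte marker mean at week 24 was 12.42 ± 0.58 (SD, n = 4) in controls and 13.48 ± 0.95 (SD, n = 5) in ad libitum dogs, but all 7 adipocyte markers are among the 24 targets, so this mean is no separate measure of fat cell content. The count of 7 was 1, DGAT2, without the muscle-rich arrays, without the week-24 arrays of control dogs 3 and 4, or with the actin measure as a covariate. It was 14 without ad libitum dog 5, and without another dog it lay between 2 (without ad libitum dog 2) and 6, with 3 each without control dog 3 and ad libitum dogs 6 and 7 and 4 without control dog 4.

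Other activators and cofactors of fat cell formation were mixed. Of 23 tested, 12 had positive differences at week 24, with a median of 0.04. The 1 that passed as higher and the 1 that passed as lower compare with 3.76% and 1.69% of all tested probe sets. SREBF1, the lipogenic factor that also helps activate PPARG, was higher by 1.67 (adjusted p = 0.0470), just inside the threshold. That call was lost without a batch term, without the filter on low values, with quantile normalization, with the actin covariate, and when any dog but ad libitum dog 5 was left out. CREBBP, a histone acetyltransferase that serves PPARG as a coactivator, was lower (difference -0.83, adjusted p = 0.00798), and lost its call without ad libitum dog 2 or with the actin covariate. Of PPARG's partners, RXRB differed by -0.59 and RXRG by 0.28, and neither passed. LPIN1, a phosphatidate phosphatase and coactivator, was at 1.41 (adjusted p = 0.0991), and NR1H3, the oxysterol receptor LXRα, at 1.01 (adjusted p = 0.14).

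Of 14 tested restraints on fat cell formation, 0 passed at week 24 (5.46% of all tested probe sets did) and 2 had positive differences, with a median of -0.41. WWTR1, the Hippo pathway coactivator TAZ that represses PPARG, was at 0.82 (adjusted p = 0.0535), and passed with an intensity trend in the variance and without control dog 1, control dog 3 or ad libitum dog 5. DDIT3, the C/EBP-homologous inhibitor CHOP, was at -0.71 and passed as lower without control dog 9. RUNX1T1, an inhibitor of C/EBP activity, was at -0.79, and TCF7L2, a Wnt effector, at -0.62, and neither passed. Of 14 tested upstream signals, IGF1, a growth factor that promotes adipogenesis, was higher by 1.22 (adjusted p = 0.0393) and its receptor IGF1R was lower (difference -1.44, adjusted p = 0.0371), against 3.76% higher and 1.69% lower of all tested probe sets. With 1 dog left out, IGF1 passed only without ad libitum dog 5, 6 or 8, and IGF1R only without ad libitum dog 5. Both calls were lost with the actin covariate, without the filter on low values and without the week-24 array of control dog 4, and IGF1 also with the muscle covariate. SREBF1, CREBBP, IGF1 and IGF1R did not pass without the muscle-rich arrays, nor without the week-24 arrays of control dogs 3 and 4. For the averaged feeding effect, 0 genes of any of the 4 lists passed, and LEP was at 2.03 (unadjusted p = 0.0203).

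**Figure D5:**
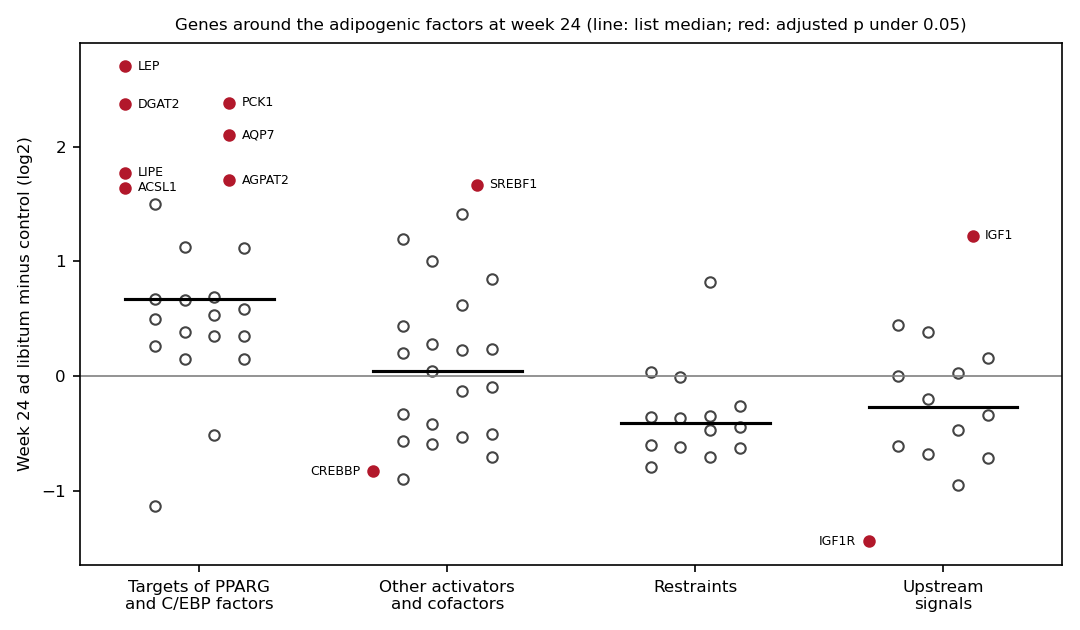
Log2 difference at week 24, ad libitum minus control (vertical axis), of the tested genes of 4 lists (columns), 1 point per gene at its brightest probe set, with a line at the list's median. Filled red points passed an adjusted p of 0.05: 7 of 24 targets, SREBF1 and CREBBP of 23 activators and cofactors, 0 of 14 restraints, and IGF1 and IGF1R of 14 upstream signals.

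PPARG ran against KLF5 and ZNF423. Over the 45 arrays PPARG and KLF5 correlated at r = -0.51, and at -0.26 over the 35 arrays without muscle transcripts, while PPARG and ZNF423 correlated at -0.39 and -0.55. The points of each correlation share dogs, batches and array normalization. Over the 35 arrays PPARG ran with the fat cell markers (r = 0.58), which are all among its listed targets. EBF1 ran against them there (r = -0.56) and with the fibroblast and precursor markers (r = 0.60).

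The genes whose values followed each factor most closely over the 45 arrays were found among all tested genes with a symbol of their own. Nearest to PPARG were KLB, the co-receptor for FGF21 (r = 0.88), L3HYPDH (0.87) and PYGL, the liver-type glycogen phosphorylase (0.86). Nearest to EBF1 were DOCK1, an activator of RAC (0.84), the transporter ABCA6 (0.83) and MTURN (0.83). ZNF423 was followed by the cytoskeletal protein ADD1 (0.88), ITM2C (0.86) and SNX33 (0.83). These 9 correlations were 0.76 to 0.89 over the 35 arrays without muscle transcripts. For KLF5 they were lower, PPP2R2B (0.71), CD59, an inhibitor of complement (0.70), and PAIP2 (0.68), and PPP2R2B fell to 0.31 over the 35 arrays.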

How the data were processed

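The authors deposited 1 value per probe set and array, made with GCRMA (per the submitters' processing notes, version not given in the sources used here), and their range was read as log2. Neither the log base nor a batch correction is stated there. Per the labels' protocols, RNA was extracted with Trizol and labelled by the 1-cycle biotin method. Symbols came from the platform table.

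Of 42924 probe sets without array controls, 22690 (52.9%) were above 4 on at least 4 arrays and were tested with limma 3.58.1 and statmod 1.5.0 in R 4.3.3. The model held 10 means, of feeding group by week, and a term for batches 1 to 5, coded to sum to 0, with 31 residual degrees of freedom. Same-numbered samples are the same dog, per the animal id in the labels. The dog was therefore a random block, with an estimated correlation of 0.00562. Benjamini-Hochberg adjustment ran over all tested probe sets, with a threshold of 0.05. The leading probe set of a gene is its brightest by mean, and the likeness rule took 3 genes per factor. From each list, up to 4 genes per direction with the smallest p are named, and other list genes were chosen after their values were seen. The members and lists were chosen with earlier results of these data known. In simulated week-24 data of 22690 probe sets, 163 of 200 changed by log2 2 were recovered, and 2.98% of 168 calls were false. The simulated noise was normal and independent between probe sets, with dog and batch terms. It held no muscle-rich arrays and no differences in RNA quality, so these rates do not carry over to the real calls. The number of arrays limits the precision.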

Additional observations from a re-analysis of the deposited data

Results flagged for a closer look

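In 6 of the 40 sets of 4 or 5 dogs examined (4 leading probe sets, 2 feeding groups, 5 weeks) 1 dog stood apart from the rest by Dixon's criterion, which chance meets in about 1 of 20 sets. PPARG was 10.97 in ad libitum dog 5 at week 24, with the nearest of its group at 12.76, and 13.35 in control dog 1 at week 12, with the nearest at 11.82. EBF1 was 11.03 in ad libitum dog 2 at week 24, with the nearest at 11.84. KLF5 was 5.85 in ad libitum dog 8 at week 0, with the nearest at 7.25, on an array with muscle transcripts. ZNF423 was 11.10 in ad libitum dog 7 at week 0, also on such an array, with the nearest at 11.83, and 12.09 in control dog 1 at week 24, with the nearest at 12.33.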

How the results depend on the processing

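The number of member probe sets past the threshold at week 24, 1 in the report, was 0 without the muscle-rich arrays, with the actin covariate, with the week-24 arrays fitted alone, without the week-24 array of control dog 4, and without those of control dogs 3 and 4, and 0 to 2 with 1 dog left out. The last pair of alternatives and the list counts under alternatives were chosen after seeing the data. At week 8 it was 1 in place of 0 without the muscle-rich arrays and 0 to 1 with a dog left out. For the ad libitum change to week 8 it was 1 without a batch term, 2 without the muscle-rich arrays, 1 with the muscle covariate and 0 to 3 with a dog left out. For the joint course it was 1 without the muscle-rich arrays and 0 to 1 with a dog left out, and 0 to 1 likewise for the ad libitum change to week 4, the control change to week 12 and the late shift. The middle EBF1 probe set turned to 0.04 at week 24 without control dog 3 and 0.10 without control dog 9, and its late shift, -0.25 to 0.03 with a dog left out, to 0.030 without control dog 3 and 0.031 without ad libitum dog 8. The PPARG feeding effect at week 24 turned to -0.29 without the week-24 arrays of control dogs 3 and 4. The KLF5 call at week 24 was also lost without control dog 3 or ad libitum dogs 2 or 7 (adjusted p 0.0552 to 0.0707) and control dog 4 (-1.35, adjusted p = 0.13), and kept with quantile normalization (-2.19) and other filters. The causes were not tested. Without the dog as a replicate block KLF5 differed by -2.08 (adjusted p = 0.0156), and with a term for each dog the block gave 0 calls in feeding effects, late shift and changes; it changed no other call. With 4 and 5 dogs, small differences were not detectable.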
